A study of Caenorhabditis elegans with 9 samples.

Results

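The genes fat-1 to fat-7 encode the desaturases with which Caenorhabditis elegans makes its mono- and polyunsaturated fatty acids, and their RNA was followed across worms given graphene oxide, worms given its amino-functionalised form and worms given neither. The 7 genes were found in the deposited table by their WormBase gene IDs, 7 of 46284, and all 7 passed the filter on low values, without a listed 0 in any library. The animals were N2, the wild-type laboratory strain, sampled whole after 12 h in liquid culture with 500 animals per library. The control group received no nanomaterial, the GO group graphene oxide (a carbon sheet bearing oxygen groups) and the GONH2 group the same material with amino groups added, with 3 libraries in each group. All 3 groups share the strain, the culture and the time. No source used here gives the dose, the age of the worms or whether replicates were grown apart, and p-values therefore measure only the spread between these libraries.

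A desaturase places a double bond into a fatty acyl chain, taking electrons from cytochrome b5. In C. elegans the Δ9 enzymes FAT-5, FAT-6 and FAT-7 make monounsaturated fatty acids, FAT-5 mainly from palmitic acid and FAT-6 and FAT-7 from stearic acid. FAT-2, the Δ12 enzyme, turns oleic into linoleic acid, and FAT-1 turns omega-6 into omega-3 fatty acids, both steps that mammals lack, so the worm makes its polyunsaturated fatty acids without dietary supply. FAT-3 (Δ6) opens the route to the long-chain polyunsaturated fatty acids, elongases lengthen its products, and FAT-4 (Δ5) then yields arachidonic and eicosapentaenoic acid. The intestine is the worm's main site of fat synthesis and storage.

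Values are FPKM, in which the fragments of a gene are divided by its transcript length in kilobases and scaled to the library's mapped fragments, so levels can be set side by side between genes. They are given per library or as means ± SD (n = 3). Differences between groups are differences of log2(FPKM + 1) ± SE from limma, fitted to all 12849 genes that passed the filter, and a gene is called where the Benjamini-Hochberg adjusted p over those genes is under 0.05. The depth behind each value is unknown, as FPKM hold no read totals. The FPKM of a library summed to 955606 to 1010904. Positions and exonic bases follow the WBcel235 annotation, in which all 7 genes are protein-coding. The median log2 difference over all tested genes was 0.024 with GO and 0.0031 with GONH2 relative to control, and −0.024 between GONH2 and GO.

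The members covered a wide range of levels. fat-2 stood highest with a mean of 758 FPKM over the 9 libraries, followed by fat-1 with 411, fat-6 with 288, fat-4 with 240, fat-3 with 101, fat-5 with 27.1 and fat-7 with 11.04. fat-2 lay between rank 198 and rank 234 of the tested genes in every library, while fat-7 lay between 6877 and 8079. Within each library this order held, save that fat-6 was below fat-4 in control replicate 1 (211 against 221 FPKM). Across libraries 2 steps overlapped. fat-6 and fat-4 overlapped over the 9 libraries, since the lowest fat-6 value (211 FPKM, control replicate 1) was below the highest fat-4 value (260.4 FPKM, GO replicate 2). fat-5 and fat-7 overlapped too, with a lowest fat-5 value of 13.01 and a highest fat-7 value of 14.9 FPKM, in different control libraries. Together the 7 genes summed to between 1640 FPKM in control replicate 1 and 1935 in GO replicate 3.

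**Figure D1:**
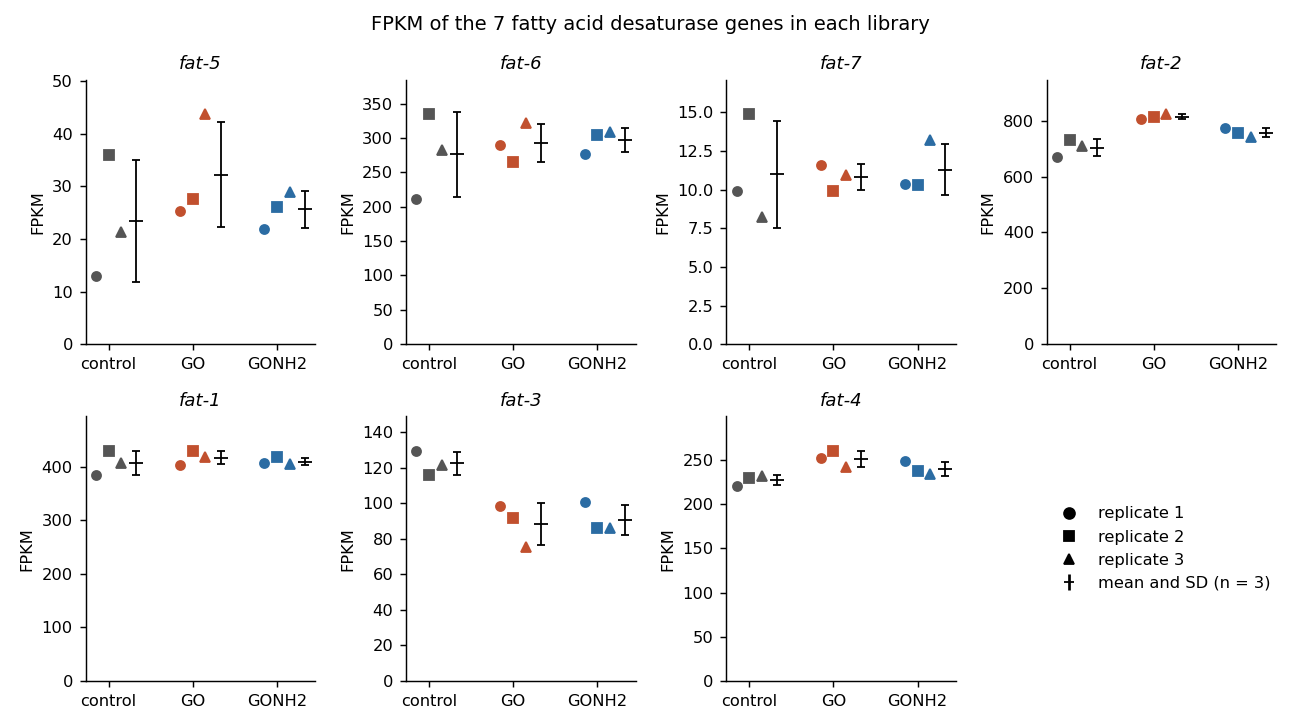
FPKM of each desaturase gene (vertical axes, linear, from 0, each with its own scale) in the 9 libraries, grouped as control, GO and GONH2. Symbols mark replicate numbers and bars the mean ± SD of 3 libraries. The GO libraries of fat-2 (807 to 823) lie above the control libraries (669.98 to 729.5), and all 6 libraries of fat-3 with a graphene material (75.4 to 101) lie below the controls (116 to 129).

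With GO, fat-2 rose and was the 1 member called, with 0 called lower. Of all tested genes 1.26% were called in this comparison, 1.08% higher and 0.179% lower. In 3 members the libraries of GO and control stood apart without overlap, fat-2 and fat-4 higher and fat-3 lower with GO. Of all tested genes 12.1% separated in this way, 9% higher and 3.12% lower. Over the 7 members the median log2 difference was 0.10, beside 0.024 over all tested genes. At an unadjusted p under 0.05 there were 3 members, and 7.74% of all tested genes. With GONH2, limma called 0 of 7 members against control, 2 had an unadjusted p under 0.05, as 5.31% of all tested genes did, and the median was 0.078, beside 0.0031 over all genes. The share called over all genes was 0.436%. The same 3 genes, fat-2, fat-4 and fat-3, had GONH2 and control libraries that did not overlap, in the same directions, as 8.83% of all tested genes did, 5.18% higher and 3.65% lower. For fat-4 this gap was narrow, from 231.5 FPKM in control replicate 3 to 233.9 in GONH2 replicate 3, and depends on the scaling. Both comparisons use the same control libraries.

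fat-2 (WBGene00001394, chromosome IV, 13323873 to 13326395, plus strand, 1255 exonic bases) encodes the Δ12 desaturase that feeds all polyunsaturated fatty acid synthesis in the worm. Control libraries had 669.98, 729.5 and 709 FPKM, GO libraries 807, 814 and 823, and GONH2 libraries 774, 757 and 742. Every GO library was above every GONH2 library, and every GONH2 library above every control library. The rise with GO was 0.21 ± 0.035 on the log2 scale (95% interval 0.13 to 0.29; limma adjusted p = 0.0216), or 15.9% of the control mean, higher in 3 of 3 libraries. With GONH2 the difference from control was 0.11 ± 0.035 (limma adjusted p = 0.581), and GONH2 minus GO was −0.11 ± 0.035 (limma adjusted p = 0.852), neither of which was called. The moderated F test over the 3 groups gave fat-2 an adjusted p of 0.0682, where 0.957% of all tested genes passed.

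The call of fat-2 lay close to the threshold. Its difference stayed between 0.18 and 0.24 in all 20 alternative fits, and the call was lost in 10 of them (limma adjusted p = 0.00813 to 0.0999 over the 20). The libraries whose omission ended it were control replicates 1 and 3 (adjusted p = 0.0531 and 0.0723), GO replicates 1, 2 and 3 (0.0620, 0.0999 and 0.0881) and GONH2 replicate 2 (0.0554). It was also lost with median-of-ratios scaling, which lowered the difference to 0.19 (adjusted p = 0.0635), and in the fit with the replicate number as a block (adjusted p = 0.0648).

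Intestinal genes were followed beside fat-2, since in whole animals more cells of a type and more RNA per cell cannot be told apart. The summed FPKM of 11 intestine markers was 2857 to 2920 in control, 3310 to 3395 in GO and 3179 to 3357 in GONH2 libraries. Of these, 2 were called higher with GO and 1 with GONH2. Over all tested genes 1.08% were called higher with GO, and 0.436% were called in either direction with GONH2. The called markers were the gut protease gene asp-1 in both comparisons and the gut esterase gene ges-1 with GO, and 0 were called lower. With GONH2, ges-1 differed from control by 0.31 ± 0.062 (limma adjusted p = 0.127) and was not called. Its GONH2 and control libraries did not overlap, as in 8.83% of all tested genes. The asp-1 calls held in all 20 alternative fits, while that of ges-1 was lost in 5 (limma adjusted p = 0.00820 to 0.0846), among them the omission of control replicate 3 (0.0526) and of GO replicate 1, 2 or 3 (0.0798, 0.0846 and 0.0703). The list did not move one way: the metallothionein gene mtl-2 differed by −0.33 ± 0.067 with GO (limma adjusted p = 0.0693) and the proton pump gene vha-6 by 0.22 ± 0.052 (limma adjusted p = 0.140), each without overlap with control and neither called. Of all tested genes 12.1% had GO and control libraries without overlap. Without asp-1, left out after its values were seen, the other 10 markers summed to 1641 to 1709 FPKM in control, 1610 to 1695 in GO and 1605 to 1701 in GONH2 libraries, and these ranges overlap. The protease gene cpr-6, with a mean of 1091 FPKM over the 9 libraries, made up most of that sum. Markers of epidermis, germline, sperm, muscle and neurons had 0 members called in the 3 comparisons. The shares called over all tested genes were 1.26% with GO, 0.436% with GONH2 and 0.132% between the materials. Over all 6 marker lists 9, 5 and 3 of 45 tested genes had an unadjusted p under 0.05 with GO, with GONH2 and between the materials, where the shares over all tested genes were 7.74%, 5.31% and 4.65%. With GO and without overlap, 2 of 8 muscle and 2 of 10 germline markers were lower, and 1 epidermis and 1 neuron marker higher. Over all tested genes 3.12% separated as lower and 9% as higher. The muscle markers were myo-1 and myo-2 (−0.27 ± 0.071 and −0.28 ± 0.083; limma adjusted p = 0.200 and 0.302). The 8 muscle genes summed to 1628.94 to 1649.9 FPKM in control, 1593.2 to 1628.87 in GO and 1553 to 1648 in GONH2 libraries. The sum of 7 sperm genes was at most 6.28 FPKM in any library. The part of cell composition in the fat-2 result was not tested.

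fat-1 (WBGene00001393, chromosome IV, 13315644 to 13318811, plus strand, 1416 exonic bases) encodes the omega-3 desaturase and lies 5061 bases before fat-2 on the same strand, with 0 protein-coding genes between them. Its libraries read 385, 429 and 407 FPKM in control, 404, 429 and 418 with GO, and 407, 417 and 404 with GONH2. The 3 groups overlapped throughout, and fat-1 varied least of the 7 over the 9 libraries, its highest value being 1.11 times its lowest. The log2 difference was 0.035 ± 0.042 for GO minus control (95% interval −0.060 to 0.13; limma adjusted p = 0.937) and 0.0088 ± 0.042 for GONH2 minus control (95% interval −0.086 to 0.104; limma adjusted p = 1.0). Over the 20 alternative fits they were −0.0037 to 0.074 and −0.030 to 0.048. The extremes came without control replicate 1 and without control replicate 2, and the sign turned in 1 and 3 fits.

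fat-3 (WBGene00001395, chromosome IV, 9803023 to 9806119, plus strand, 1492 exonic bases) encodes the Δ6 desaturase, whose product gamma-linolenic acid and the related stearidonic acid are known in the worm for a part in basal innate immunity. It had the largest proportional difference among the 3 members whose groups separated. Control libraries had 129, 116 and 122 FPKM, GO libraries 98.6, 91.6 and 75.4, and GONH2 libraries 101, 85.9 and 86.1. All 6 libraries with a graphene material were below all 3 controls, and the GO and GONH2 libraries overlapped each other.

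The mean of fat-3 was 27.7% below control with GO and 25.8% below with GONH2. On the log2 scale the difference was −0.47 ± 0.10 for GO (95% interval −0.70 to −0.24; unadjusted p = 0.00138, limma adjusted p = 0.0885) and −0.43 ± 0.10 for GONH2 (−0.66 to −0.20; unadjusted p = 0.00247, limma adjusted p = 0.238). Neither passed the threshold over all tested genes. For GO the difference was −0.55 to −0.36 over the 20 alternative fits, and 1 of them, with the replicate number as a block, put it past the threshold (limma adjusted p = 0.0350). GONH2 minus GO was 0.042 ± 0.10, with an interval from −0.19 to 0.27, and its sign turned in 3 of the 20 fits (−0.068 to 0.124), among them those without GO replicate 3 or GONH2 replicate 1.

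fat-4 (WBGene00001396, chromosome IV, 9799429 to 9802226, plus strand, 1540 exonic bases) encodes the Δ5 desaturase that acts after FAT-3 and elongation. It ends 796 bases before fat-3 starts, on the same strand, with 0 genes between them. Control libraries had 221, 229 and 232 FPKM, GO libraries 252, 260.4 and 242, and GONH2 libraries 248, 238 and 234. All libraries with a graphene material were above all controls, but for GONH2 only narrowly. The lowest GONH2 value was 233.9 FPKM (replicate 3) and the highest control value 231.5 (replicate 3). Their median-of-ratios scaling factors were 0.995 and 0.977, and dividing by these reverses the order of the 2 libraries. The separation of fat-4 with GONH2 therefore depends on the scaling. The log2 difference was 0.15 ± 0.037 for GO (95% interval 0.063 to 0.23; unadjusted p = 0.00357, limma adjusted p = 0.171) and 0.078 ± 0.037 for GONH2 (−0.0054 to 0.16; limma adjusted p = 0.973), and neither was called.

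The libraries with a graphene material thus lay on opposite sides of control for the neighbours fat-4 and fat-3, whose ratio within a library does not depend on how libraries are scaled. The ratio of fat-4 to fat-3 was 1.71, 1.97 and 1.90 in control, 2.56, 2.84 and 3.21 in GO and 2.47, 2.77 and 2.72 in GONH2 libraries. The control libraries did not overlap with either treated group. The mean log2 ratio was 0.89 ± 0.11 in control, 1.52 ± 0.16 in GO and 1.40 ± 0.088 in GONH2 libraries, a difference of 0.62 for GO and 0.51 for GONH2. With 3 libraries against 3 the two-sided exact permutation test gave p = 0.10 for both, the smallest value it can give (adjusted p = 0.30 over 18 tests on 6 ratios). As fat-4 and fat-3 each separated from control, on opposite sides, their ratio had to separate too, which fixed this p. The test therefore adds no support beyond the values of the single genes. Leaving out each of the 6 libraries in turn kept the difference between 0.54 and 0.70 for GO and between 0.45 and 0.56 for GONH2.

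Of the other ratios, fat-3 over fat-2 and fat-1 over fat-2 also had control libraries apart from both treated groups. The log2 ratio of fat-3 to fat-2 differed from control by −0.69 with GO and −0.54 with GONH2, and that of fat-1 to fat-2 by −0.18 and −0.10, each with an exact permutation p of 0.10. For fat-3 over fat-2 this p was again fixed, since fat-3 was lower and fat-2 higher than control in all libraries with a graphene material. The log2 ratios of fat-2 to fat-6, of fat-7 to fat-6 and of fat-6 to fat-5 overlapped between groups in the 3 comparisons, with exact permutation p from 0.20 to 0.90. For GONH2 minus GO the 6 ratios overlapped too.

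**Figure D2:**
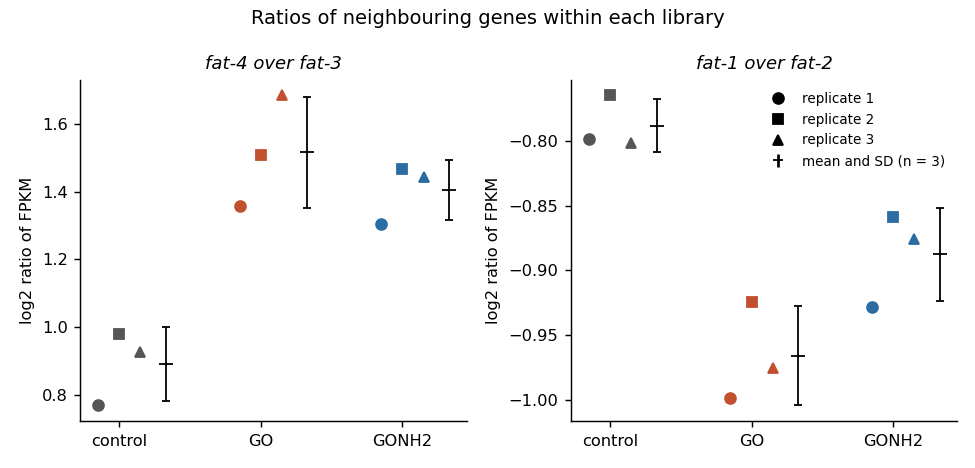
Log2 ratio of FPKM within each library (vertical axes, not from 0) for fat-4 over fat-3 and fat-1 over fat-2, each a pair of neighbouring genes on chromosome IV. Symbols mark replicate numbers and bars the mean ± SD of 3 libraries. In the left panel the control libraries (0.77 to 0.98) lie below the GO (1.36 to 1.68) and GONH2 libraries (1.30 to 1.47).

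The Δ9 genes fat-5, fat-6 and fat-7 had 0 calls in any of the 3 comparisons, and their groups overlapped in each. fat-6 (WBGene00001398, chromosome IV, 11913692 to 11915687, minus strand, 1166 exonic bases), a stearoyl-CoA desaturase, made up 85.5% to 90.5% of the summed FPKM of the 3 genes in each library. Its control libraries had 211, 334 and 283 FPKM, its GO libraries 289.9, 266 and 322, and its GONH2 libraries 277, 304 and 309. The control libraries alone span the whole range, from the lowest value of fat-6 to the highest. GO minus control was 0.10 ± 0.15 (95% interval −0.24 to 0.44; limma adjusted p = 0.962) and GONH2 minus control 0.13 ± 0.15 (−0.21 to 0.46). Both turned negative without control replicate 1 (−0.076 and −0.054) and were larger without control replicate 2 (0.25 and 0.28).

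fat-7 (WBGene00001399, chromosome V, 7151353 to 7153146, minus strand, 1126 exonic bases), the second stearoyl-CoA desaturase and a close relative of fat-6, is known to fall on fasting and to rise in the cold. It made up 2.64% to 4.23% of the summed FPKM of the Δ9 genes. Its control libraries had 9.90, 14.9 and 8.23 FPKM, its GO libraries 11.6, 9.92 and 10.9, and its GONH2 libraries 10.4, 10.3 and 13.2. GO minus control was 0.012 ± 0.19 (95% interval −0.42 to 0.44) and GONH2 minus control 0.065 ± 0.19 (−0.37 to 0.495), and neither direction held across the 20 alternative fits. For GO it was −0.16 without control replicate 3, −0.038 without control replicate 1, −0.034 without GO replicate 1 and 0.23 without control replicate 2, and it turned under both other scalings (−0.013 and −0.015). For GONH2 it was −0.11 without control replicate 3, −0.044 without GONH2 replicate 3 and 0.29 without control replicate 2. How the authors' counting shared reads between fat-6 and fat-7 is not given in the sources used here, so their division is uncertain.

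fat-5 (WBGene00001397, chromosome V, 17725004 to 17726818, plus strand, 1104 exonic bases), which prefers palmitic acid, varied most among the 7, from 13.01 to 43.7 FPKM, or 3.36-fold over the 9 libraries. Control libraries had 13.01, 36.0 and 21.4 FPKM, GO libraries 25.3, 27.7 and 43.7, and GONH2 libraries 21.9, 26.1 and 28.9. Control replicate 1 was the lowest of the 9 libraries and GO replicate 3 the highest, and the groups overlapped. GO minus control was 0.51 ± 0.33 (95% interval −0.25 to 1.27; limma adjusted p = 0.836) and GONH2 minus control 0.23 ± 0.33 (−0.53 to 0.99; limma adjusted p = 1.0). Without control replicate 1 these became 0.17 and −0.12, and without control replicate 2 they became 0.87 and 0.58 (unadjusted p = 0.0131 and 0.0654; limma adjusted p = 0.291 and 0.699). GO minus control was 0.28 without GO replicate 3, and GONH2 minus control 0.14 without GONH2 replicate 3. The annotation places the end of twk-42, on the opposite strand, over the end of fat-5, and twk-42 had 3.15 to 4.50 FPKM. The strand setting of the authors' counting is not given.

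**Figure D3:**
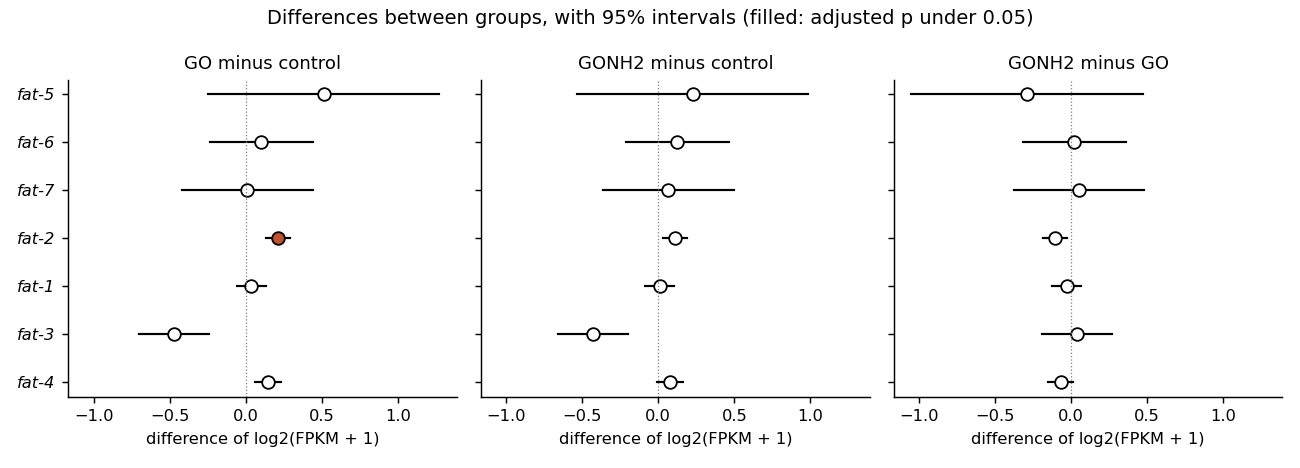
Differences of log2(FPKM + 1) between groups (horizontal axes) for the 7 genes, with 95% intervals from limma, in the 3 comparisons. The filled point, fat-2 in GO minus control (0.21), has an adjusted p under 0.05, and the intervals of fat-5 are the widest in each panel.

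Between the materials, GONH2 minus GO, limma called 0 of 7 members, beside 0.132% of all tested genes, and 1 member (fat-2) had an unadjusted p under 0.05, as 4.65% of all tested genes did. The groups did not overlap in 1 member, fat-2, which was lower with GONH2. Of all tested genes 10% separated, and 7.09% did so with GONH2 lower. The median over the members was −0.027, beside −0.024 over all tested genes. The 95% interval of fat-2 (−0.18 to −0.026) left out 0, and those of the other members included it. The intervals of fat-1 and fat-4 (−0.12 to 0.069 and −0.15 to 0.016) were narrow, while that of fat-5 reached from −1.05 to 0.47.

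The other genes of the pathway were read from 8 lists holding 58 genes, of which 54 passed the filter. The 54 include atgl-1, whose differences are not read because of listed zeros. With GO 1 of the 54 was called higher and 0 lower, beside 1.08% higher and 0.179% lower over all tested genes. Of the 54, 6 had an unadjusted p under 0.05, beside 7.74% over all tested genes. limma called 0 in GONH2 minus control and 0 in GONH2 minus GO, each with 2 at an unadjusted p under 0.05, where 5.31% and 4.65% of all tested genes passed. The median log2 difference of the 54 was 0.033 for GO and 0.029 for GONH2 minus control.

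The called gene was cytb-5.1, which encodes a cytochrome b5, the protein that hands electrons to desaturases. It had 124, 132 and 119.2 FPKM in control, 146, 150.2 and 145 in GO and 133, 128 and 133 in GONH2 libraries. All GO libraries were above all others. The rise with GO was 0.23 ± 0.041 (limma adjusted p = 0.0332) and GONH2 minus control was 0.068 (limma adjusted p = 1.0). This call was lost in 12 of 20 alternative fits (limma adjusted p = 0.00920 to 0.167), among them the omission of control replicate 1 or 3 (adjusted p = 0.132 and 0.0930), of GO replicate 1, 2 or 3 (0.105, 0.167 and 0.0892) and of GONH2 replicate 1, 2 or 3 (0.0619, 0.0595 and 0.0588). The other electron carriers that passed the filter, the cytochrome b5 gene cytb-5.2 and the reductase gene hpo-19, had differences of 0.030 and 0.035 with GO (limma adjusted p = 0.921 and 0.887).

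Upstream of the desaturases, 0 of 5 genes of saturated fatty acid synthesis were called in either direction in any comparison, and the median with GO was 0.032. let-767 and hpo-8, which act in chain elongation in the endoplasmic reticulum, had the smallest p of this list (0.0522 with GONH2 and 0.0577 with GO, both unadjusted). Of 9 elongases 7 passed the filter and 0 were called. elo-1, which lengthens the product of FAT-3, had a mean of 282 ± 28.0 FPKM in control and 311 ± 19.8 in GO libraries (0.14 ± 0.070, limma adjusted p = 0.709), and elo-4 had a difference of −0.25 ± 0.15 with GONH2 (limma adjusted p = 1.0). Of 10 regulators of the Δ9 desaturases 0 were called. acdh-11 differed by 0.12 ± 0.051 with GO (limma adjusted p = 0.645), and nhr-49, a nuclear hormone receptor that drives Δ9 desaturase expression, by 0.076 ± 0.045 (limma adjusted p = 0.801).

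Among 4 fasting genes under NHR-49, 9 genes of phosphatidylcholine synthesis, 8 of neutral lipid storage and 8 tested genes of eicosanoid and fatty acid amide metabolism, 0 were called in any comparison. The storage genes include atgl-1, listed at 0 in GO replicate 1 and GONH2 replicate 1. With an SE of 1.83 its missing call says nothing about a change. In the fasting list hacd-1 and ech-1.1 had the smallest p (limma adjusted p = 1.0 with GONH2 and 0.820 with GO). The methyltransferase gene pmt-1 differed by −0.12 ± 0.037 with GONH2 and by −0.084 ± 0.037 with GO (limma adjusted p = 0.531 and 0.645). The choline kinase gene ckb-4 differed by 0.21 ± 0.072 with GO (limma adjusted p = 0.434). dhs-3, whose protein coats lipid droplets in the intestine, had a mean of 69.2 ± 9.15 FPKM in control, 85.5 ± 8.03 in GO and 82.8 ± 3.38 in GONH2 libraries (0.31 ± 0.096 and 0.26 ± 0.096; limma adjusted p = 0.353 and 0.756), and acl-6 differed by 0.057 with GONH2. The cytochrome P450 gene cyp-33E2 had 3.46 ± 0.520 FPKM in control and 4.90 ± 0.296 in GO libraries (0.41 ± 0.11, limma adjusted p = 0.254), and faah-1 differed by −0.14 between GONH2 and GO (limma adjusted p = 1.0).

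The spread of fat-5 and fat-6 was set beside that of other lipid genes, a set chosen for its likeness after its values were seen, so the likeness is a description only. The elongase gene elo-6, for branched-chain fatty acids, had 75.7, 314 and 106 FPKM in control, 133, 188 and 243 in GO and 196, 186 and 193 in GONH2 libraries. Control replicate 1 was the lowest of the 9 libraries and control replicate 2 the highest for elo-6, elo-5 and elo-2. fat-6 had its lowest and highest values in the same libraries. The likeness was clearest among the controls and did not hold in every group. Among the GONH2 libraries, replicate 1 had the lowest fat-5 and fat-6 values and the highest elo-2, elo-5 and elo-6 values. Among the GO libraries, fat-6 was lowest in replicate 2 and elo-6 in replicate 1. acs-2, an acyl-CoA synthetase gene that fasting raises through NHR-49, ran the other way, with 242, 48.99 and 126 FPKM in control, 239, 144 and 45.8 in GO and 179, 104 and 82.2 in GONH2 libraries. Its values were lowest in GO replicate 3 and control replicate 2, the libraries in which fat-5 was highest. The other genes of the fasting list did not run against fat-5. Pearson's r of log2(FPKM + 1) with fat-5 over the 9 libraries was −0.83 for acs-2, but 0.63 for cpt-5, 0.70 for hacd-1 and 0.37 for ech-1.1. The feeding state of the libraries is not given, and its part in the spread was not tested.

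**Figure D4:**
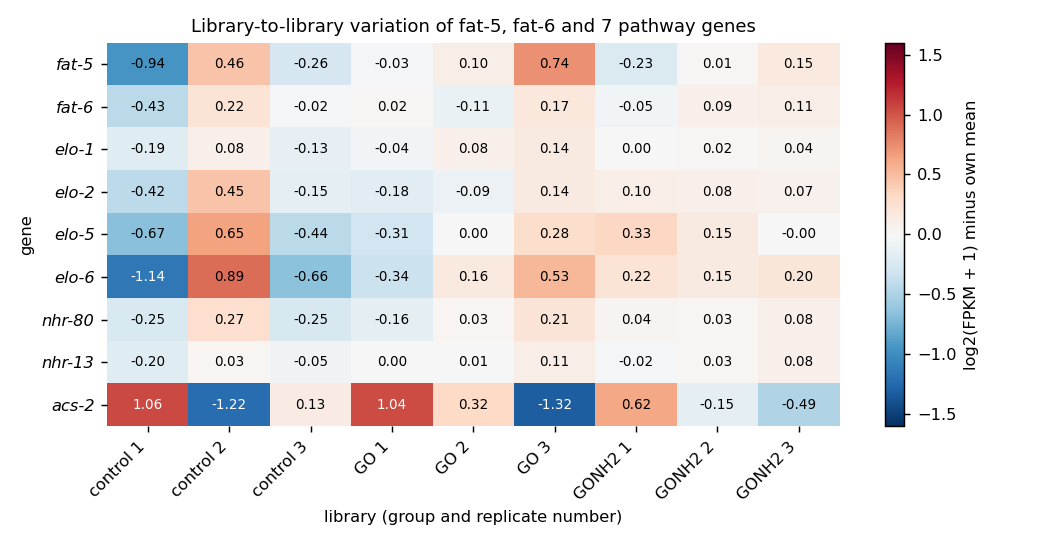
Deviation of log2(FPKM + 1) from each gene's own mean over the 9 libraries (colour and printed value) for fat-5, fat-6 and 7 genes of the pathway lists, chosen after their values were seen. Rows are genes and columns libraries. fat-5 (−0.94 in control replicate 1 and 0.74 in GO replicate 3) and elo-6 (−1.14 and 0.53) have the opposite sign to acs-2 (1.06 and −1.32) in these libraries. The other genes of the fasting list, cpt-5, hacd-1 and ech-1.1, are not shown and did not run against fat-5.

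The protein-coding genes most like each member were sought among 5121 genes with a symbol and a mean of at least 10 FPKM, by Pearson's r of log2(FPKM + 1) over the 9 libraries, which share their group differences and scaling, so r is a description only. For fat-2 they were clec-41 (0.99), hpo-34 (0.98) and nspg-9 (0.98), and for fat-3 pho-11 (0.95), cyp-34A8 (0.93) and asp-13 (0.92). fat-4 was most like swah-1 (0.94), flp-27 (0.94) and clec-47 (0.93), and fat-1 like miga-1 (0.95), ooc-3 (0.93) and air-1 (0.93). fat-5 was most like pfas-1 (0.97), fard-1 (0.96), which encodes a fatty acyl-CoA reductase, and aqp-11 (0.96). For fat-6 the genes were drd-10 (0.95), sel-10 (0.93) and pkc-2 (0.92), and for fat-7 aps-3 (0.91), rbm-42 (0.91) and hbs-1 (0.90).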

How the data were processed

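The authors deposited FPKM for 46284 WormBase gene IDs in 9 libraries. Per the labels' protocols, RNA came from whole animals by bead homogenisation in TRIzol and RNeasy columns, and stranded TruSeq libraries were sequenced paired-end. The submitters' processing notes name DESeq2, with no role given. The sources used here name no aligner, counting program or genome build. Symbols and positions come from the Ensembl release 115 annotation of WBcel235, which held 46109 of the IDs.

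A gene was kept if 3 or more libraries reached 1 FPKM (12849 genes, of which 12242 protein-coding). Log2(FPKM + 1) was modelled on group in all 9 libraries with limma 3.58.1 in R 4.3.3, with a mean-variance trend (prior and residual degrees of freedom 2.47 and 6), and tested on simulated data. The median half-width of a 95% interval was 0.217 (log2). Adding 1 FPKM understates the change of low genes. Listed zeros in some libraries beside a median of 10 FPKM or more in the others occurred in 157 genes, 74 of them tested and 0 of them members. Ratios of low values put the other libraries at 1.15 to 1.24 times the depth of control replicate 1, but the commonest ratio held for only 3.29% to 12.6% of low genes, too few to recover reads.

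The members, the pathway and marker lists and the tests were chosen with earlier results of these data known. Of each pathway list, called genes and up to 2 with the smallest p are named, and for each member the 3 most correlated genes. Ratios within a library were tested by exact permutation, two-sided. Python 3.11.15 with matplotlib 3.10.9 drew the figures. Sequences are not used here.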

Additional observations from a re-analysis of the deposited data

How the results depend on the processing

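The differences of the 7 members and cytb-5.1, the called differences of asp-1 and ges-1 and the counts of calls were refitted under 20 alternatives, and the other listed genes were not. These covered the value added before the logarithm (0.1 or 5 FPKM), the filter, the scaling, the trend, array weights, the libraries in the fit, listed zeros and the replicate number as a block. The within-library ratios were refitted without each library in turn, an alternative added after the data were seen. Of the 7 members, fat-2 and fat-3 with GO changed their side of the threshold. The fat-2 difference with GO was 0.19 with median-of-ratios scaling (adjusted p = 0.0635) and 0.21 with no trend (0.0967), with a replicate block (0.0648) and with only the 6 libraries compared (0.0847), and it was not called in these fits, so that 0 members were called higher. Leaving out 1 library gave 0.18 to 0.24 and 0 to 1 members. fat-3 with GO was −0.47 under the replicate block and called (adjusted p = 0.0350), so that 1 member was called lower; the cause was not tested.

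Same-numbered libraries of different groups had deviations correlated at −0.168 to 0.131, and 1 of 9 pairs was over 0.1, so the numbers are not shown to pair the samples. In 1 of 9 libraries the best partners in both other groups carried its own number. Over all genes the replicate block gave 25 higher and 4 lower calls for GONH2 minus control, where the fit without it gave 46 and 10, and 3 and 5 for GONH2 minus GO, where it gave 5 and 12. For GONH2 minus control the counts were 27 and 5 with no filter, 22 and 5 with no trend, 71 higher with array weights, and 27 and 6 with only the 6 libraries compared. For GONH2 minus GO they were 3 higher with a mean of at least 5 FPKM, 5 lower with no trend and 36 lower with array weights. Leaving out 1 library gave 92 to 144 higher and 15 to 26 lower calls with GO against control, 20 to 47 and 4 to 11 with GONH2 against control, and 0 to 6 and 1 to 15 between the materials. With GO against control they moved by over 1.5 times without GO replicate 2 (92 and 15). With GONH2 against control there were 22 higher without control replicate 1 or GONH2 replicate 2, 30 without control replicate 3 and 20 without GONH2 replicate 1; 5 lower without control replicate 1 or GONH2 replicate 1 or 2, 6 without GO replicate 2 or 3 and 4 without GONH2 replicate 3. Between the materials there were 2 higher without GO replicate 1 or GONH2 replicate 2 and 0 without GONH2 replicate 3; 7 lower without GO replicate 1 or GONH2 replicate 1, 3 without GO replicate 2, 6 without GONH2 replicate 2 and 1 without GONH2 replicate 3. FPKM give no depth, so low counts behind fat-7, near 10 FPKM, cannot be judged.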

Other observations

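atgl-1, the triglyceride lipase gene in the list of neutral lipid storage, was listed at 0 in GO replicate 1 and GONH2 replicate 1 and at 46.6 to 51.2 FPKM in the other 7 libraries, and its differences are not read here. elo-7 and elo-8, the elongases that did not pass the filter, had at most 0.0791 and 0.490 FPKM.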
